A study of Homo sapiens with 9 samples.

Results

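The Eph receptors and their ligands, the ephrins, were followed through 10 genes: the receptors EPHA1, EPHA2, EPHA4, EPHB2, EPHB3 and EPHB4 and the ligands EFNA1, EFNA5, EFNB1 and EFNB2. They were taken from the deposited table by gene symbol. Each of the 10 had a row of its own among 24069 rows, and all 10 were among the 12011 rows tested. Their values were read in 9 RNA-seq libraries, 3 from each of 3 cell populations. PR2 and PR1 are ponatinib-resistant derivatives of LC-2/ad, both cultured in 200 nM ponatinib. Parental LC-2/ad is an established human lung adenocarcinoma line, and no drug is stated for it. LC-2/ad carries a CCDC6-RET fusion, and ponatinib is an inhibitor of several kinases, RET among them. The 3 libraries of a population carry the letters A, B and C. Whether PR1 and PR2 are single clones, and whether the letters mark separate cultures, is not stated, so p-values measure the spread between libraries, which may be technical. The effect of ponatinib in the medium and that of resistance cannot be told apart in a comparison with parental cells. The comparisons of PR2 and of PR1 with parental cells share the 3 parental libraries.

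Eph receptors form a large family of receptor tyrosine kinases whose ligands stay attached to the neighbouring cell. EphA receptors bind mainly ephrin-A ligands, which hold to the membrane by a lipid anchor, and EphB receptors bind mainly ephrin-B ligands, which cross it. Contact starts a forward signal in the cell with the receptor and a reverse signal in the cell with the ephrin, and in epithelia and carcinomas the pair affects adhesion, sorting and migration of cells. Eph receptors are among the kinases that ponatinib binds in biochemical screens.

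Values are FPKM, that is, fragment counts corrected for transcript length and for the size of the library. Fold changes are differences of group means of log2(FPKM + 1), which understate the change of low genes, and are given with standard errors. A gene is said to have risen or fallen where limma's test, adjusted by the Benjamini-Hochberg method over all 12011 rows, gave a p under 0.05. Libraries held 11263 to 11629 rows at 1 FPKM or more, and their summed FPKM was 571570 to 686460. FPKM keep no absolute depth, but the single-fragment steps of low rows put every library at 0.759 to 1 of the depth of parental A. By this estimate the A library was the deepest of each population (0.921 in PR2 and 0.974 in PR1). The estimate rests on the most common step ratio, held by 5.25% to 9.89% of the low rows compared outside parental A. All 12 epithelial and lung markers examined reached 1 FPKM in at least 3 libraries. Their summed level was 7315 to 9475 FPKM in PR2, 5675 to 7874 FPKM in PR1 and 6347 to 7191 FPKM in parental cells, mostly from KRT7, KRT8 and KRT19, each at 1205 to 3548 FPKM in every library. Of the 12, 1 rose and 4 fell in PR2 against parental cells, where 23.4% of all tested rows were called. In PR1 against parental cells 2 rose and 1 fell, where 15.5% of all rows were called. The genes that rose were KRT7 in PR2 (limma adjusted p = 0.0056), and NAPSA and NKX2-1 in PR1 (0.0094 and 0.0195). The NKX2-1 call was lost without parental B, parental C or PR1 B (limma adjusted p = 0.051 to 0.0726). SFTPB, a surfactant protein, averaged 0.0254 ± 0.0085 FPKM in PR2, 4.82 ± 1.28 FPKM in PR1 and 79.6 ± 56.1 FPKM in parental cells, and fell in both derivatives (limma adjusted p = 6.57e-06 in PR2 and 0.0003 in PR1). SLC34A2, MUC1 and KRT18 fell in PR2 (limma adjusted p = 6.12e-05, 0.0159 and 0.0346). Without parental B neither MUC1 (limma adjusted p = 0.0667) nor KRT18 was called. KRT18, at only 2.34 to 8.17 FPKM, was not called without the A libraries either. Of 10 fibroblast markers 2, and of 9 blood cell markers with a row of their own 1, reached 1 FPKM in at least 3 libraries. CD68, another blood cell marker, lies in a combined row. CD14 fell in PR2 and in PR1 against parental cells (limma adjusted p = 0.0007 and 0.0033). PDGFRA fell in PR2 against parental cells (limma adjusted p = 0.027), a call kept in 12 of 17 alternatives. It passed the filter through the parental libraries alone and had to differ to be tested. In each population fewer of one type of cell and less RNA per cell cannot be told apart.

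The 10 genes were present at similar summed levels in the 3 populations. Their sum was 199 ± 16.1 FPKM in PR2, 206 ± 8.89 FPKM in PR1 and 205 ± 16.7 FPKM in parental cells (SD, n = 3 each). In PR2 against parental cells 2 of 10 members passed the test, where 23.4% of all tested rows did. EFNB2 was the 1 member that rose (13.6% of all rows rose) and EPHB3 the 1 member that fell (9.83% of all rows fell). Over all rows 1633 rose and 1181 fell in that comparison, against 1343 and 1582 after median scaling. Between PR2 and PR1, 2 of 10 passed, where 19.9% of all rows did. EFNB1 was the 1 member that rose (11.0% of all rows) and EPHA4 the 1 member that fell (8.92% of all rows). In PR1 against parental cells limma called 0 of 10, where 15.5% of all rows were called, 7.56% higher and 7.98% lower. There 2 members, EPHA4 and EFNB1, had an unadjusted p under 0.05. The shares of members called were near or under those of all rows. The unadjusted count was 3 of 10 in PR2 against parental cells and 4 of 10 in PR2 against PR1. The share of all rows with an unadjusted p under 0.05 was not counted. It is at least the adjusted share in each comparison, so no excess of members is read from the unadjusted counts.

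Called changes of 2-fold or more on the log2(FPKM + 1) scale numbered 0 of 10 members in each comparison. Among all rows, 9.52% had one in PR2 against parental cells, 6.67% in PR1 against parental cells and 7.48% in PR2 against PR1. The median log2 fold change over the 10 members was -0.01 in PR2 against parental cells, 0.04 in PR1 against parental cells and -0.05 in PR2 against PR1. Over all tested rows these medians were 0.03, 0.05 and 0.004. The ratio of the highest to the lowest group mean FPKM was under 2 for 9 of 10 members and ran from 1.08 for EPHB4 to 2.12 for EPHA4.

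These counts moved with the libraries used. Without PR2 B, 0 members were called in PR2 against parental cells, and 1 was called without parental B, parental C or PR2 C. Between PR2 and PR1, 0 were called without PR1 B, PR1 C or PR2 B, and 1 without PR2 C or without any one parental library. The A libraries stood apart from the B and C libraries of their populations for several members, a split known from earlier results of these data. Without all 3 A libraries, 3 members were called in PR2 against parental cells, 2 in PR1 against parental cells and 4 in PR2 against PR1. Of all 12011 rows, 3389, 2413 and 2384 were called in that setting. With the letter as a block, 1 member was called in PR1 against parental cells and 5 in PR2 against PR1. Of all 12011 rows, 3088 and 3789 were called there.

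**Figure D1:**
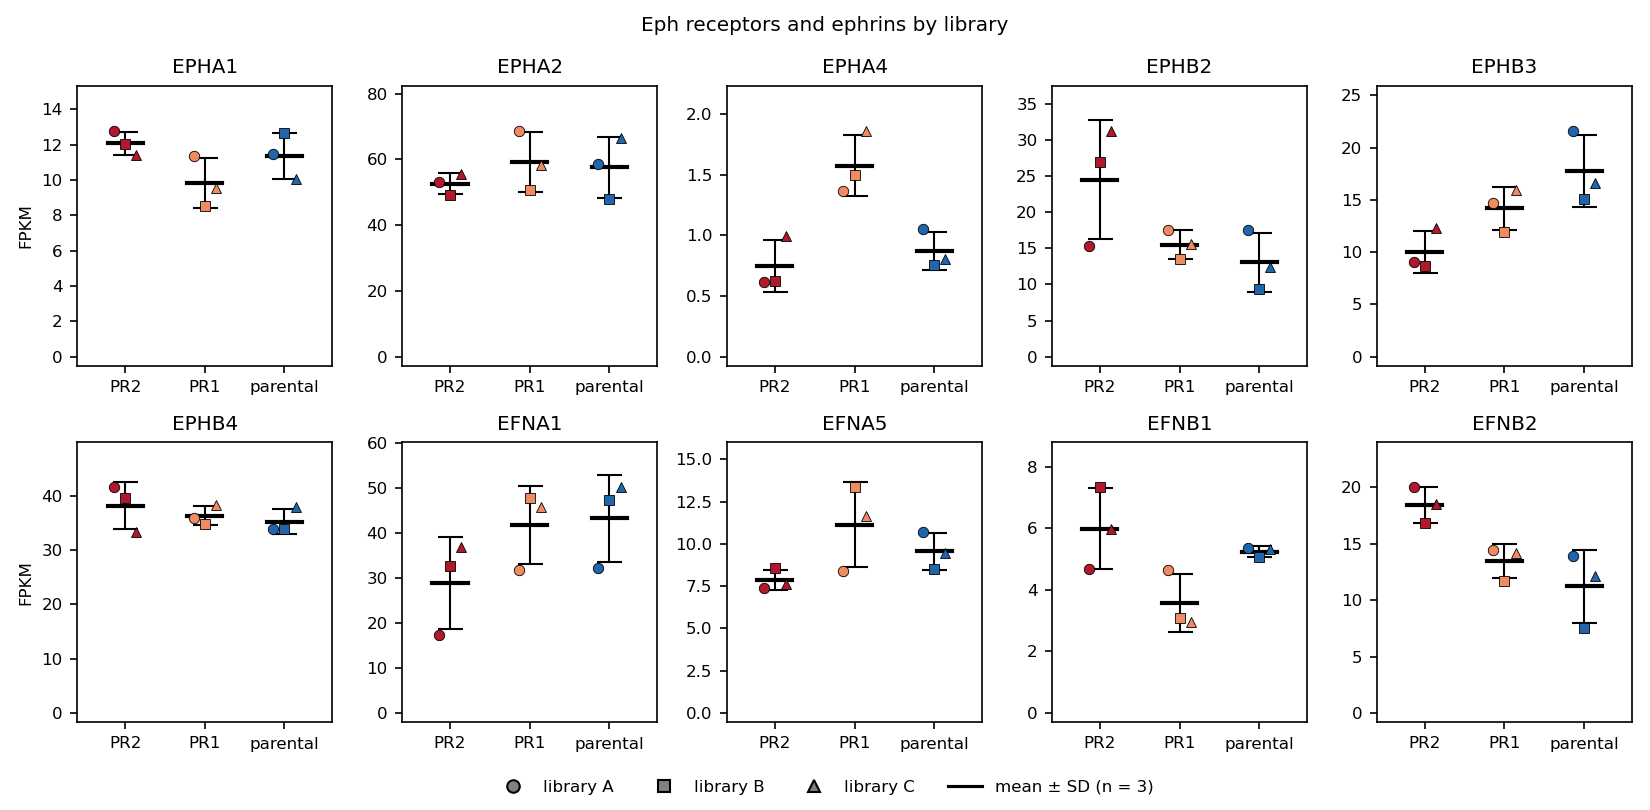
FPKM of each of the 10 members (vertical axis, starting just under 0, a scale of its own per gene) in the PR2, PR1 and parental libraries (horizontal axis). Circles, squares and triangles are the A, B and C libraries, and the bars are the mean ± SD of 3 libraries. EPHA4 stands highest in PR1, EFNB2 stands highest in PR2, and EFNA1 is lowest in the A library of every population.

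EPHA2 was the most abundant member in all 3 populations. This receptor is common in carcinomas, where it can be phosphorylated on serine by AKT and RSK without a ligand. It stood at 53.0, 49.2 and 55.5 FPKM in PR2 A, B and C, at 68.6, 50.6 and 58.3 FPKM in PR1 A, B and C, and at 58.5, 47.9 and 66.5 FPKM in parental A, B and C. The ranges of the 3 populations overlapped. In each population the mean of EPHA2 lay above 86.4% to 87.3% of the tested rows. The log2 difference was -0.12 in PR2 against parental cells (95% interval -0.50 to 0.26, limma adjusted p = 0.656) and 0.04 in PR1 against parental cells (-0.34 to 0.42, limma adjusted p = 0.904). PR2 differed from PR1 by -0.16 (limma adjusted p = 0.560). Its sign in PR1 turned with median scaling and with some libraries left out, so no direction is given.

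EPHB4 and EFNA1 came next to EPHA2 in all 3 populations. In PR2 the order of the others was EPHB2, EFNB2, EPHA1, EPHB3, EFNA5, EFNB1 and EPHA4. In PR1 it was EPHB2, EPHB3, EFNB2, EFNA5, EPHA1, EFNB1 and EPHA4. In parental cells it was EPHB3, EPHB2, EPHA1, EFNB2, EFNA5, EFNB1 and EPHA4. EFNB1 and EPHA4 were the lowest in each, and their ranges overlapped neither each other nor the next member above. Most neighbours in the middle of the order overlapped in their libraries: EFNA1 with EPHB2, EPHB2 with EFNB2 and EPHA1 with EPHB3 in PR2, each step from EPHB2 down to EPHA1 in PR1, and each step from EPHB3 down to EFNA5 in parental cells.

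EPHA1, the first receptor of the family to be found, had 12.8, 12.0 and 11.4 FPKM in PR2, 11.4, 8.56 and 9.57 FPKM in PR1, and 11.5, 12.6 and 10.05 FPKM in parental cells. The lowest PR2 library of EPHA1 lay just above the highest PR1 library, parental cells overlapped both, and the 3 log2 differences ran from -0.20 to 0.28 with adjusted p of 0.225 to 0.737 by limma. Its antisense gene EPHA1-AS1 was listed at 0.0189 to 0.0584 FPKM, and the sources used here do not say that strand was counted, so reads of the pair cannot be told apart.

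EPHA4 was the lowest member and the one with the largest ratio between populations. It is a receptor that binds ephrins of both classes. EPHA4 had 0.616, 0.625 and 0.992 FPKM in PR2, 1.37, 1.50 and 1.86 FPKM in PR1, and 1.05, 0.759 and 0.803 FPKM in parental cells. Every PR1 library lay above every PR2 and every parental library, and PR2 and parental cells overlapped. EPHA4 passed the filter through the 3 PR1 libraries and parental A. No PR2 library reached 1 FPKM, so its test between PR2 and PR1 is not independent of the filter. Between PR2 and PR1 EPHA4 fell by 0.56 ± 0.14 on the log2 scale (limma adjusted p = 0.0205), and the within-letter differences were -0.55, -0.62 and -0.52 for A, B and C. Leaving out PR1 B, PR1 C, PR2 A or PR2 B took this call away, with limma adjusted p of 0.0515 to 0.0834. PR1 differed from parental cells by 0.46 ± 0.14 on that scale (95% interval 0.14 to 0.78, limma adjusted p = 0.0560). The p was 0.0368 with the letter as a block, 0.0413 with no filter on low values, 0.0234 after quantile normalization and 0.0390 when the A libraries were dropped. The EPHA4 difference of PR2 from parental cells was -0.11 (limma adjusted p = 0.637).

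The stretch of 250 bases before the gene start is shown for EPHB3 and EFNB2, the members called in PR2 against parental cells, and for EPHB1, a receptor outside the 10 members that was far lower in both derivatives. Sequences are from RefSeq on GRCh38.p14, 5′ to 3′ on the strand of the gene, and all 10 members matched an entry of the same table. Capitals mark each match to the CCAAT box (CCAAT) or the GC box (GGGCGG) on either strand. EPHB1 lies on the plus strand at chr3:134795010-134795259, EPHB3 on the plus strand at chr3:184561535-184561784, and EFNB2 on the minus strand at chr13:106535663-106535912.
EPHB1: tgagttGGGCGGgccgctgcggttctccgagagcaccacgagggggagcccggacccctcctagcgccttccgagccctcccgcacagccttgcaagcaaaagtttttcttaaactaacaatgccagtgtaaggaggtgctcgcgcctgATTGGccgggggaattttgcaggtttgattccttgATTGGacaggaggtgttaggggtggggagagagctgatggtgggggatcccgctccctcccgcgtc
EPHB3: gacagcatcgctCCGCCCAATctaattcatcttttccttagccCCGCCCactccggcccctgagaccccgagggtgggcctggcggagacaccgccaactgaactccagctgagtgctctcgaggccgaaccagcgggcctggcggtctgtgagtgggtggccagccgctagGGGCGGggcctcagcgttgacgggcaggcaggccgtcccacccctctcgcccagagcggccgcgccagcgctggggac
EFNB2: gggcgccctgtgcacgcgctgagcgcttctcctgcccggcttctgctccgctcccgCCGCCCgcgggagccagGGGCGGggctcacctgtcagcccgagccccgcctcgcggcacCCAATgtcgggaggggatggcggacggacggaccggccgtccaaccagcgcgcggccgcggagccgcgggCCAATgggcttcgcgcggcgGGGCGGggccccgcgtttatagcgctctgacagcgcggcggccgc
EPHB1 held 2 CCAAT matches and 1 GC box, EPHB3 held 1 CCAAT match and 3 GC boxes, and EFNB2 held 2 CCAAT matches and 3 GC boxes. In EPHB3 the CCAAT match overlaps a GC box. EFNB2 held 40 CpG, EPHB3 held 21 and EPHB1 held 15, against a median of 11 over all 35116 promoter windows of the same length. A CCAAT match was present in 32.0% of all windows and a GC box in 42.6%. The letters TGANTCA (AP-1), GGAATG (TEAD), CCGGAAG (ETS) and CTTTGA (TCF) were searched on both strands as well. None is in these 3 windows, and they are in 6.57%, 11.9%, 8.52% and 11.2% of all windows. Among the 10 members, EPHA2 alone held 1 TEAD and 1 TCF match.

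Among the EphB receptors, the mean of EPHB2 stood above that of EPHB3 in PR2 and PR1, and below it in parental cells. Both are known as targets of WNT and TCF signalling in intestinal crypts, where they sort cells along the crypt. EPHB3 had 9.05, 8.71 and 12.3 FPKM in PR2, 14.7, 12.0 and 16.0 FPKM in PR1, and 21.6, 15.0 and 16.7 FPKM in parental cells. All PR2 libraries lay below all parental libraries, and PR1 overlapped both. EPHB3 averaged 10.02 ± 1.98 FPKM in PR2 and 17.8 ± 3.40 FPKM in parental cells (SD, n = 3 each). It fell by 0.77 ± 0.19 on the log2 scale in PR2 against parental cells (limma adjusted p = 0.0156). The A, B and C libraries differed by -1.17, -0.72 and -0.41. Leaving out PR2 B ended this call (limma adjusted p = 0.0622), as did leaving out the A libraries (0.0933).

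The log2 difference of EPHB3 in PR1 from parental cells was -0.30 (limma adjusted p = 0.336). Between PR2 and PR1 it was -0.47 (limma adjusted p = 0.111), and 0.0443 with the letter as a block.

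EPHB2 had 15.4, 27.0 and 31.3 FPKM in PR2, 17.5, 13.5 and 15.6 FPKM in PR1, and 17.5, 9.37 and 12.4 FPKM in parental cells. PR2 B and C were above every other library, while PR2 A lay within the range of PR1 and of parental cells. The log2 difference of EPHB2 was 0.84 ± 0.28 in PR2 against parental cells (95% interval 0.22 to 1.46, limma adjusted p = 0.0520), which misses the threshold. Within letters the difference was -0.18 for A, 1.43 for B and 1.27 for C. Without PR2 A it was 1.13 (limma adjusted p = 0.0089), without parental A 1.06 (0.0254) and without all A libraries 1.35 (0.0023). The EPHB2 difference between PR2 and PR1 was 0.58 (limma adjusted p = 0.174), and 0.96 without the A libraries (0.0132). Its difference between PR1 and parental cells was 0.26 (limma adjusted p = 0.576).

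EPHB4 was the steadiest member, with a ratio of 1.08 between its highest and lowest group mean. It is the receptor of ephrin-B2 in veins. EPHB4 had 41.5, 39.6 and 33.3 FPKM in PR2, 35.9, 34.8 and 38.2 FPKM in PR1, and 33.9, 33.9 and 37.9 FPKM in parental cells. All 3 ranges overlapped. The log2 difference was 0.11 in PR2 against parental cells (95% interval -0.20 to 0.42, limma adjusted p = 0.619) and 0.05 in PR1 against parental cells (-0.26 to 0.35, limma adjusted p = 0.866). PR2 differed from PR1 by 0.06 (limma adjusted p = 0.799). Median scaling turned the signs of both differences from parental cells, so EPHB4 is given no direction.

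**Figure D2:**
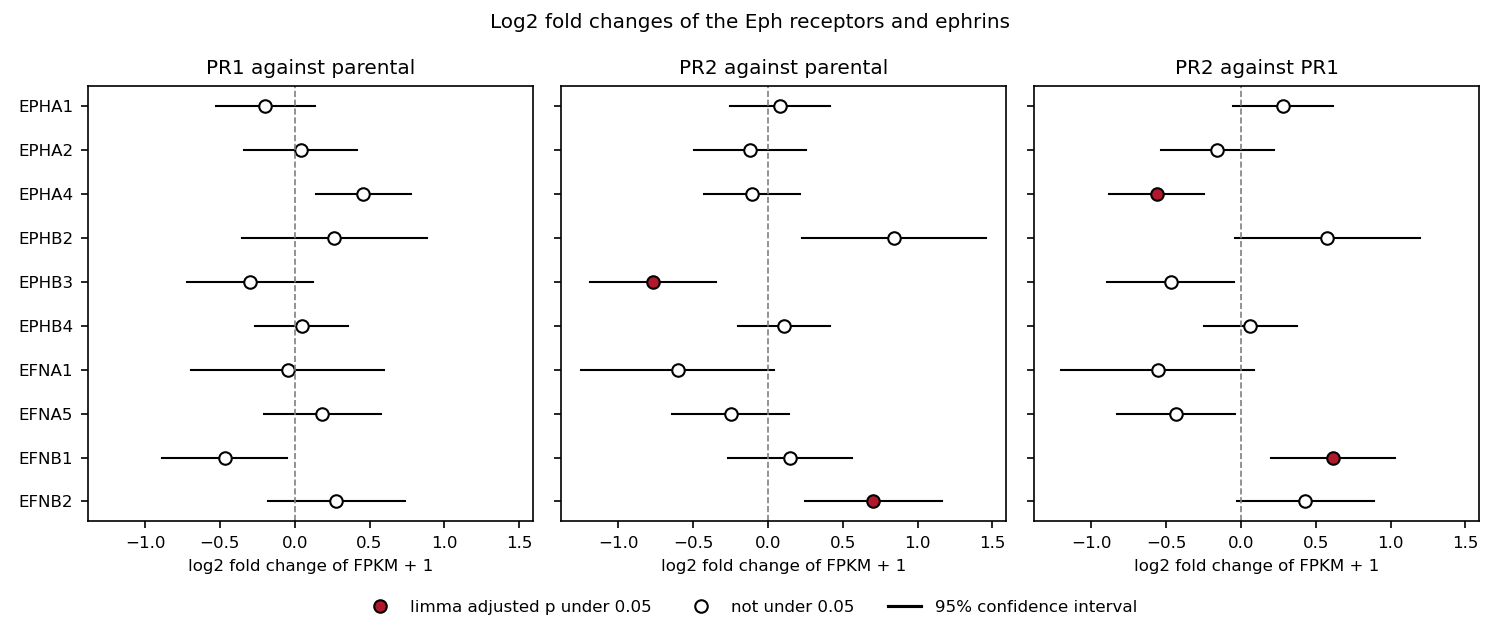
Log2 fold change of FPKM + 1 (horizontal axis) for the 10 members (vertical axis) in PR1 against parental, PR2 against parental and PR2 against PR1, with 95% confidence intervals from limma. Filled points passed the adjusted threshold of 0.05: EPHB3 (-0.77) and EFNB2 (0.71) in PR2 against parental, and EPHA4 (-0.56) and EFNB1 (0.62) in PR2 against PR1.

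EFNB2 encodes ephrin-B2, the arterial ligand of EPHB4, which also binds other EphB receptors and EPHA4. It had 20.0, 16.8 and 18.5 FPKM in PR2, 14.5, 11.7 and 14.2 FPKM in PR1, and 13.9, 7.58 and 12.2 FPKM in parental cells. Every PR2 library lay above every other library, and PR1 overlapped parental cells. EFNB2 averaged 18.4 ± 1.60 FPKM in PR2, 13.5 ± 1.53 FPKM in PR1 and 11.2 ± 3.27 FPKM in parental cells (SD, n = 3 each). It rose by 0.71 ± 0.21 on the log2 scale in PR2 against parental cells (limma adjusted p = 0.0324), by 0.50, 1.06 and 0.57 in the A, B and C libraries. The call was lost without parental B (0.47, limma adjusted p = 0.0886), without parental C or any one PR2 library (0.0513 to 0.0908) and when only PR2 and parental libraries were fitted (0.0577).

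EFNB2 differed by 0.43 on the log2 scale in PR2 from PR1 (limma adjusted p = 0.175, and 0.0477 with the letter as a block). The difference between PR1 and parental cells was 0.28 (limma adjusted p = 0.414).

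EFNB2 is also an endothelial gene, so endothelial markers were read beside it. Of 10 endothelial markers, KDR, ESAM and ENG reached 1 FPKM in at least 3 libraries. Their list summed to 19.6 to 22.8 FPKM in PR2, 20.2 to 27.4 FPKM in PR1 and 9.08 to 10.7 FPKM in parental cells. CDH5 was at most 0.877 and VWF at most 0.234 FPKM in any library, and TIE1 and ERG were listed at 0 in all PR2 libraries. ESAM rose by 2.00 and ENG by 1.05 on the log2 scale in PR2 against parental cells (limma adjusted p = 0.0003 and 0.0060). In PR1 against parental cells, where EFNB2 was not called, ESAM rose by 1.25 and ENG by 1.19 (limma adjusted p = 0.0064 and 0.0047). KDR averaged 2.07 ± 1.37 FPKM in PR2 and 2.05 ± 0.491 FPKM in parental cells and was not called. PECAM1, which was not tested, was at 0 to 0.0123 FPKM in PR2 and 0.338 to 1.13 FPKM in parental cells. The part of these markers in the EFNB2 result was not tested.

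EFNB1, the ephrin mutated in craniofrontonasal syndrome, was lowest in PR1. It had 4.68, 7.33 and 5.96 FPKM in PR2, 4.66, 3.08 and 2.97 FPKM in PR1, and 5.37, 5.05 and 5.31 FPKM in parental cells. All PR1 libraries lay below all PR2 and all parental libraries, although PR1 A and PR2 A were nearly equal. EFNB1 rose by 0.62 ± 0.19 on the log2 scale in PR2 against PR1 (limma adjusted p = 0.0429). The difference was 0.0045 within letter A, 1.03 within B and 0.81 within C, and 0.92 with the A libraries left out (limma adjusted p = 0.0091).

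This call was lost in 12 other settings, with limma adjusted p of 0.0535 to 0.158. They were each parental library left out, PR1 B, PR1 C, PR2 B or PR2 C left out, no filter, the 5 FPKM filter, quantile normalization, median scaling, and a fit of PR2 and PR1 alone. The log2 difference of EFNB1 between PR1 and parental cells was -0.47 ± 0.19 (95% interval -0.88 to -0.06, limma adjusted p = 0.121), and -0.62 without the A libraries (0.0382). Between PR2 and parental cells it was 0.15 (limma adjusted p = 0.618).

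EFNA1, the preferred ligand of EPHA2 and a gene induced by TNF in endothelium, was the most abundant ephrin. It had 17.3, 32.7 and 36.7 FPKM in PR2, 31.7, 47.6 and 45.6 FPKM in PR1, and 32.3, 47.2 and 50.1 FPKM in parental cells. The A library was the lowest of each population, and PR2 overlapped both other populations only through their A libraries. The log2 difference of EFNA1 was -0.60 ± 0.29 in PR2 against parental cells (95% interval -1.25 to 0.04, limma adjusted p = 0.164), and within letters it was -0.86, -0.52 and -0.44. With the A libraries left out it was -0.48 (limma adjusted p = 0.0447). Between PR2 and PR1 it was -0.56 ± 0.29 (limma adjusted p = 0.208), with 0.0149 under the letter block and within-letter differences of -0.84, -0.53 and -0.30. Between PR1 and parental cells it was -0.05 (limma adjusted p = 0.934), with a sign that turned when parental B, parental C or PR1 A was left out.

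EFNA5, an axon guidance ligand that also binds EPHB2, had 7.41, 8.56 and 7.62 FPKM in PR2, 8.41, 13.3 and 11.7 FPKM in PR1, and 10.7, 8.53 and 9.43 FPKM in parental cells. PR2 overlapped PR1 through PR1 A and parental cells through parental B. The log2 difference of EFNA5 was -0.43 in PR2 against PR1 (limma adjusted p = 0.112), with 0.0319 when PR1 A and 0.0492 when all A libraries were left out. It was -0.25 in PR2 against parental cells (limma adjusted p = 0.344) and 0.19 in PR1 against parental cells (0.535).

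**Figure D3:**
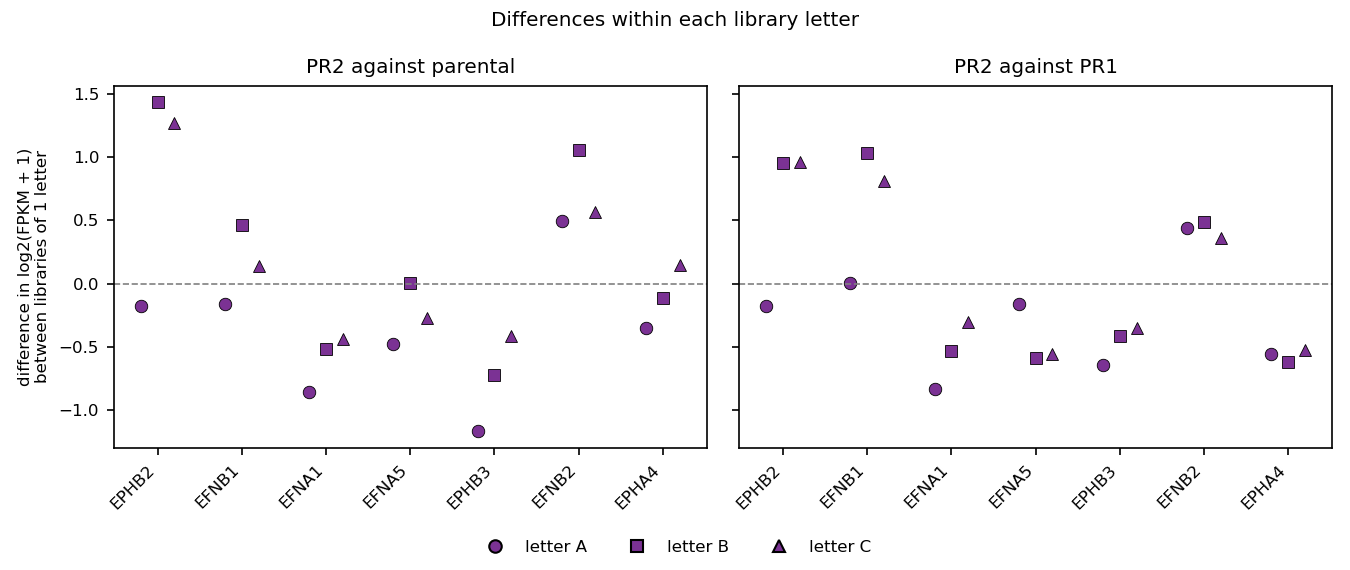
Difference in log2(FPKM + 1) between libraries of the same letter (vertical axis) for 7 members (horizontal axis), in PR2 against parental and in PR2 against PR1; each point is 1 library against 1 library, with no replicate within a letter. EPHB2 differs by -0.18 in letter A in both panels and by 0.95 to 1.43 in B and C, while EFNB2, EPHB3 and EFNA1 keep 1 sign in all letters.

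Summed by class, the ephrin-B ligands stood highest in PR2. They summed to 24.4 ± 0.271 FPKM in PR2, 17.0 ± 2.18 FPKM in PR1 and 16.5 ± 3.44 FPKM in parental cells, or 12.3% of the summed members in PR2, 8.24% in PR1 and 7.99% in parental cells. The ephrin-A ligands summed to 36.8 ± 10.5 FPKM in PR2, 52.8 ± 11.1 FPKM in PR1 and 52.7 ± 8.66 FPKM in parental cells. The ephrin-B ranges of PR2 and of the other populations did not overlap, while the ephrin-A ranges did. The EphA receptors summed to 65.4 ± 3.17 FPKM in PR2, 70.6 ± 10.4 FPKM in PR1 and 69.9 ± 8.08 FPKM in parental cells. The EphB receptors summed to 72.7 ± 5.89 FPKM in PR2, 66.1 ± 5.08 FPKM in PR1 and 66.0 ± 7.39 FPKM in parental cells, with overlap in both receptor classes (SD, n = 3 for each sum). The sums are a description and were not tested.

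**Figure D4:**
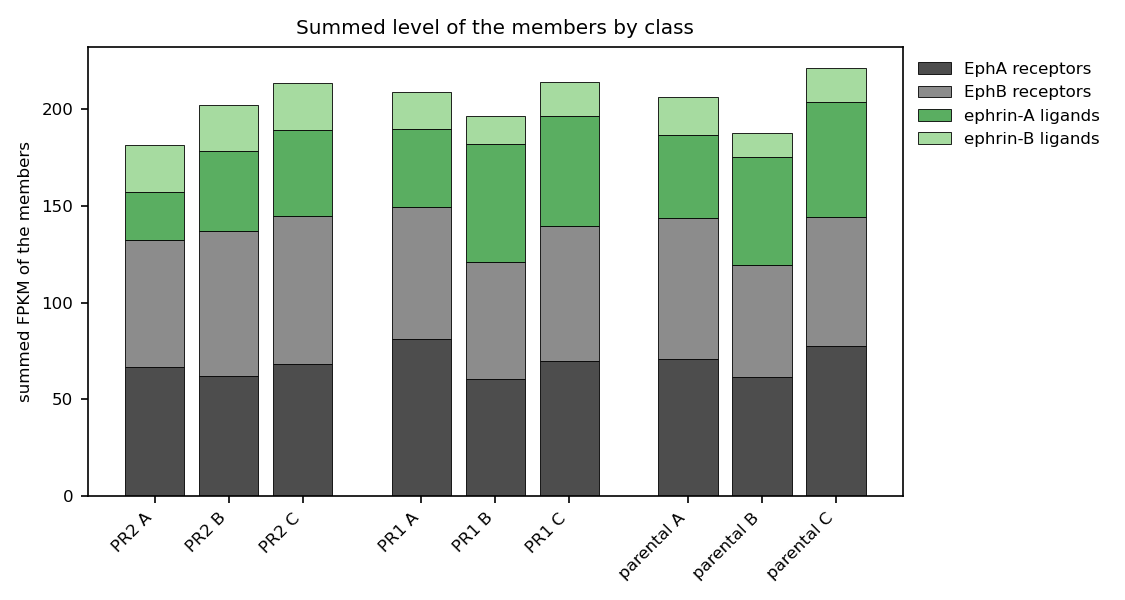
Summed FPKM of the 10 members (vertical axis, starting at 0) in each PR2, PR1 and parental library (horizontal axis), split into EphA receptors, EphB receptors, ephrin-A and ephrin-B ligands. The ephrin-B part is 24.1 to 24.7 FPKM in PR2, 14.8 to 19.1 FPKM in PR1 and 12.6 to 19.3 FPKM in parental libraries, and the ephrin-A part is smallest in PR2 A (24.7 FPKM).

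Of the other 12 genes of the family, EPHB1 and EPHA10 alone held larger log2(FPKM + 1) differences between populations than the 10 members. The 12 genes filled 11 rows, since EFNA3 and EFNA4 share a combined row, and 4 rows were tested. Called were 2 of 4 in PR2 against parental cells, where 23.4% of all rows were called. In PR1 against parental cells 2 of 4 were called (15.5% of all rows), and in PR2 against PR1 1 of 4 (19.9%). EPHB1, a receptor of ephrin-B ligands, had 0.0231, 0.0744 and 0.0573 FPKM in PR2, 0.323, 0.325 and 0.382 FPKM in PR1, and 4.96, 4.79 and 5.28 FPKM in parental cells. No ranges overlapped, and all 6 libraries of the derivatives lay far below the 3 parental ones. EPHB1 fell by 2.51 ± 0.11 on the log2(FPKM + 1) scale in PR2 against parental cells (limma adjusted p = 1.17e-06) and by 2.16 ± 0.11 in PR1 against parental cells (2.79e-06). Since EPHB1 passed the filter through the parental libraries alone, it had to differ to be tested. With a pseudocount of 0.1 in place of 1 the log2 changes were -5.09 in PR2 and -3.53 in PR1. PR2 differed from PR1 by -0.35 on the log2 scale (limma adjusted p = 0.0527), and -1.56 with a pseudocount of 0.1 (0.0023). At -0.35 it was also called with the letter as a block (limma adjusted p = 0.0395), with no filter (0.0108) and with only PR2 and PR1 fitted (0.0422), and within letters it was -0.37, -0.30 and -0.39.

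EPHA10, a family member that lacks kinase activity, differed in opposite directions. It had 2.98, 2.02 and 2.12 FPKM in PR2, 0.0136, 0 and 0.0075 FPKM in PR1, and 0.713, 0.624 and 1.01 FPKM in parental cells. All PR2 libraries lay above the parental ones and all PR1 libraries lay below them, and PR1 B is listed at 0. EPHA10 rose by 0.91 ± 0.15 on the log2 scale in PR2 against parental cells (limma adjusted p = 0.0016) and fell by 0.82 ± 0.15 in PR1 against parental cells (0.0048). The difference between PR2 and PR1 was 1.73 ± 0.15 (limma adjusted p = 5.95e-05). With a pseudocount of 0.1 the 3 values were 1.49, -3.02 and 4.51. EPHA10 passed the filter through the 3 PR2 libraries and parental C. Its tests of PR2 against the other populations are thus not independent of the filter.

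EFNA2, an ephrin-A ligand, had 1.27, 3.74 and 3.02 FPKM in PR2, 1.49, 2.46 and 1.58 FPKM in PR1, and 0.959, 1.93 and 1.30 FPKM in parental cells. It was not called in any comparison with all 9 libraries, and its log2 difference of PR2 from parental cells was 0.57 (limma adjusted p = 0.163). It was 0.89 without PR2 A (limma adjusted p = 0.0173) and 0.75 with all A libraries left out (0.0355). The combined EFNA3,EFNA4 row had 14.2, 24.1 and 19.4 FPKM in PR2, 16.5, 18.5 and 15.7 FPKM in PR1, and 16.8, 18.5 and 12.5 FPKM in parental cells, and was not called either. EPHA3 was listed at 0 in all 9 libraries. EPHA5, EPHA6, EPHA7, EPHA8 and EPHB6 were at most 0.102 FPKM and EFNB3 at most 0.724 FPKM.

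**Figure D5:**
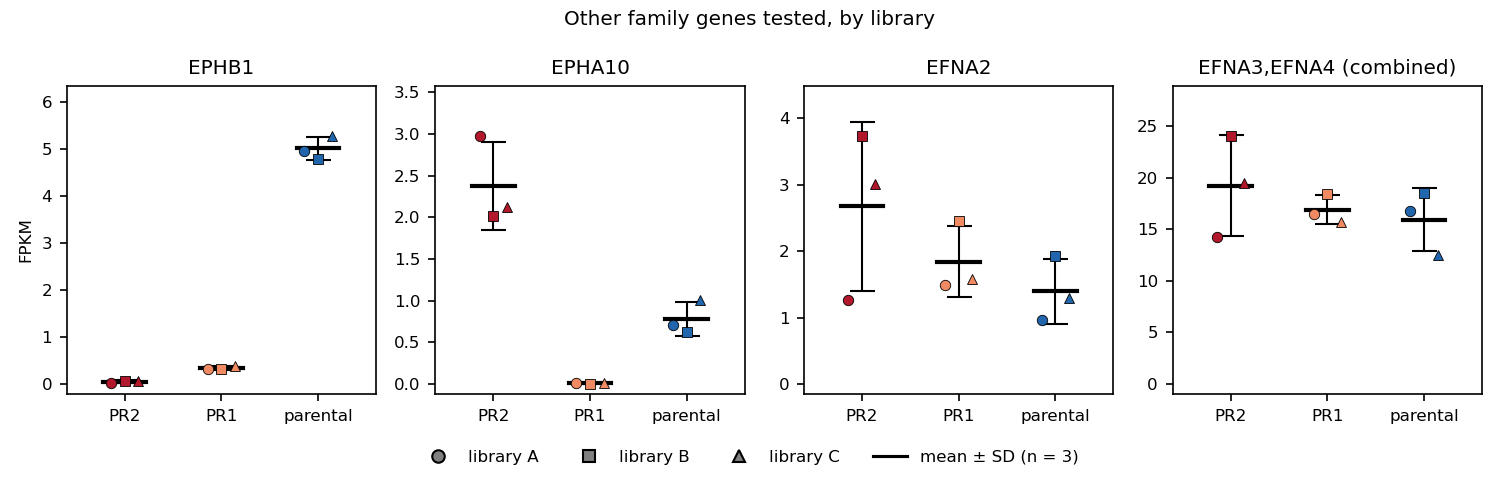
FPKM (vertical axis, a scale of its own per gene) of the 4 tested rows of the family outside the 10 members, in the PR2, PR1 and parental libraries (horizontal axis), with the mean ± SD of 3 libraries. EPHB1 is at 4.79 to 5.28 FPKM in parental libraries and under 0.4 FPKM in all derivative libraries, and EPHA10 is at 2.02 FPKM or more in PR2 and at most 0.0136 FPKM in PR1.

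The pathway around the receptors was read from 4 lists. Of 48 genes for adaptors and effectors of forward signalling, 43 were tested. In PR2 against parental cells 7 rose and 5 fell (12 of 43, where 23.4% of all rows were called), in PR1 against parental cells 5 rose and 4 fell (9 of 43, against 15.5%), and in PR2 against PR1 8 rose and 5 fell (13 of 43, against 19.9%). PAK1, a RAC effector kinase, averaged 15.8 ± 1.90 FPKM in PR2 and 52.1 ± 5.82 FPKM in parental cells, and fell by 1.66 on the log2 scale (limma adjusted p = 0.0004). SHB, an adaptor, averaged 6.78 ± 0.795 FPKM in PR2 and 21.7 ± 6.91 FPKM in parental cells, and fell by 1.51 (limma adjusted p = 0.0006). PIK3R1, a regulatory subunit of PI3-kinase, fell by 1.32 in PR2 and by 1.24 in PR1 against parental cells (limma adjusted p = 0.0015 and 0.0034).

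DOCK4 and SRC moved in opposite directions in PR1. DOCK4, an activator of RAC, averaged 0.249 ± 0.0204 FPKM in PR2, 5.17 ± 1.12 FPKM in PR1 and 0.681 ± 0.103 FPKM in parental cells. It rose by 1.86 on the log2 scale in PR1 against parental cells (limma adjusted p = 4.53e-05) and fell by 2.29 in PR2 against PR1 (1.24e-05). Since DOCK4 passed the filter through the PR1 libraries alone, it had to differ to be tested. SRC, a kinase that Eph receptors engage, averaged 8.51 ± 2.01 FPKM in PR2, 2.33 ± 0.216 FPKM in PR1 and 10.1 ± 1.82 FPKM in parental cells. It fell by 1.72 in PR1 against parental cells (limma adjusted p = 0.0003) and rose by 1.50 in PR2 against PR1 (0.0005). The count of 13 called genes of this list between PR2 and PR1 was 6 to 8 when any one PR2 or PR1 library was left out, and 8 without the A libraries. With the letter as a block, the count of 9 in PR1 against parental cells was 14.

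Of 14 genes for reverse signalling and PDZ partners of ephrin-B ligands, 11 rows were tested. In PR2 against parental cells 3 rose and 0 fell (3 of 11, against 23.4% of all rows), in PR1 against parental cells 2 rose and 0 fell (2 of 11, against 15.5%), and in PR2 against PR1 4 rose and 1 fell (5 of 11, against 19.9%). The combined rows DLG4,DVL2 and DHRS13,FLOT2 were among the rises of PR2 in both of its comparisons. These rises cannot be assigned to the list genes DVL2 and FLOT2. CAV1 was the only row of a single gene that rose in PR2 against parental cells. CAV1, the coat protein of caveolae, averaged 452 ± 82.7 FPKM in PR2, 292 ± 188 FPKM in PR1 and 45.4 ± 43.2 FPKM in parental cells. It rose by 3.67 on the log2 scale in PR2 and by 2.88 in PR1 against parental cells (limma adjusted p = 0.0015 and 0.0088). PAG1, a raft adaptor that binds CSK, averaged 0.472 ± 0.237 FPKM in PR2, 2.28 ± 0.456 FPKM in PR1 and 0.479 ± 0.180 FPKM in parental cells. It rose by 1.15 in PR1 against parental cells (limma adjusted p = 0.0016) and fell by 1.16 in PR2 against PR1 (0.0012). PAG1 too passed the filter through the PR1 libraries alone and had to differ to be tested. The count in PR2 against parental cells was 5 without PR1 A or without PR2 A and 6 without the A libraries, and that in PR2 against PR1 was 3 without PR2 B or PR2 C.

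Of 16 genes for cleavage and turnover of receptors and ephrins, 14 were tested, with 3 higher and 1 lower in PR2 against parental cells, 0 higher and 1 lower in PR1 against parental cells, and 2 higher and 1 lower in PR2 against PR1. The calls were 4, 1 and 3 of 14, against 23.4%, 15.5% and 19.9% of all rows. MMP14, a membrane protease that cuts EPHA2, averaged 5.57 ± 2.91 FPKM in PR2, 0.131 ± 0.0356 FPKM in PR1 and 1.68 ± 0.429 FPKM in parental cells. MMP14 rose by 2.42 on the log2 scale in PR2 against PR1 (limma adjusted p = 0.0006). Its calls against parental cells, higher by 1.19 in PR2 (limma adjusted p = 0.0191) and lower in PR1 by a log2 change of -1.23 (0.0230), were lost without single libraries. These were parental C, PR2 B or PR2 C in PR2 and parental B or any one PR1 library in PR1. CBLB, a ubiquitin ligase, averaged 4.17 ± 1.44 FPKM in PR2 and 12.5 ± 1.97 FPKM in parental cells and fell by 1.41 (limma adjusted p = 0.0058). The count of 4 in PR2 against parental cells was 1 without parental C and 2 without parental B, without PR2 B or without PR2 C. The 1 call in PR1 was 0 without parental B or any one PR1 library, 2 with parental A or PR2 A left out, 4 with all A libraries left out and 5 with the letter as a block. The 3 calls in PR2 against PR1 were 5 without PR2 A and 6 without the A libraries.

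Of 12 phosphatases and kinases that act on Eph receptors, 11 were tested, with 3 higher and 1 lower in PR2 against parental cells, 1 higher in PR1 against parental cells and 1 higher in PR2 against PR1. The calls were 4, 1 and 1 of 11, against 23.4%, 15.5% and 19.9% of all rows. RPS6KA1, which encodes the RSK kinase known to phosphorylate EPHA2, averaged 24.5 ± 3.93 FPKM in PR2, 29.1 ± 7.09 FPKM in PR1 and 14.3 ± 1.50 FPKM in parental cells. It rose by 0.73 on the log2 scale in PR2 (limma adjusted p = 0.0220) and by 0.96 in PR1 against parental cells (0.0089). The call in PR2 was lost without PR2 A, PR2 B, parental B or parental C. PTPRF, a receptor phosphatase, averaged 64.7 ± 1.06 FPKM in PR2 and 41.7 ± 3.01 FPKM in PR1 and rose by 0.63 (limma adjusted p = 0.0109). The 4 calls in PR2 against parental cells were 0 without PR2 B, 1 without parental B or PR2 A, and 2 without parental C or PR2 C. The 1 call between PR2 and PR1 was 4 with the letter as a block, after quantile normalization and after median scaling, and 2 without PR1 A or PR2 A.

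Rows with the most similar pattern over the 9 libraries were found for the 3 members with the largest range of group means. The measure was the root mean square distance between centred log2(FPKM + 1) profiles, over 10999 rows. For EPHB2 they were UBE2D1 (0.138), RND3 (0.197) and DAAM1 (0.204). UBE2D1 averaged 21.9 FPKM in PR2, 13.3 FPKM in PR1 and 10.9 FPKM in parental cells. For EPHB3 they were HIST2H2AC (0.121), TOP1 (0.123) and EMP1 (0.135). TOP1 averaged 54.5 FPKM in PR2, 75.6 FPKM in PR1 and 89.2 FPKM in parental cells. For EFNB2 they were PICALM (0.0861), NLN (0.0886) and CNOT7 (0.0904). The profiles share libraries and their scaling, and the likeness is a description.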

How the data were processed

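Total RNA of 9 libraries was sequenced after column purification and TruSeq RNA library preparation, per the labels' protocols. The authors aligned and quantified reads with TopHat2 2.0.14, Cufflinks 2.2.1 and Cuffdiff 2.2.1 on GRCh37/hg19, per the submitters' processing notes. Which annotation and strand setting were used is not given in the sources used here, nor is the depth. Values in the authors' deposited table are FPKM, a unit inferred from Cufflinks and from value steps that scale with gene length, since the header names none. An exact 0 can be a failed estimate, and rows that join several genes cannot be split.

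In R 4.3.3, log2(FPKM + 1) of the 12011 rows that reached 1 FPKM in at least 3 libraries was fitted with limma 3.58.1, with 1 mean per group over all 9 libraries and an intensity trend. Tests were two-sided, with Benjamini-Hochberg adjustment and a threshold of 0.05. The procedure was tested on simulated data drawn independently for each library. These held no effect of the letter, so that test does not cover deviations shared by a letter. The members and lists were chosen with earlier results of these data known. All 10 members and the other tested Eph and ephrin rows are named, and of each pathway list at most the 4 genes with the largest called change per comparison.

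The letters were checked for pairing by the correlation of deviations from group means. It was 0.311, 0.477 and 0.163 (A, B, C) for PR1 with parental cells and 0.527, 0.544 and 0.254 for PR2 with PR1. All of these lay above 0.1, the mark used for pairing. For PR2 with parental cells it was 0.296, 0.417 and 0.014, with letter C under that mark. Whether the letters pair libraries is not settled by these values, and no label says so. The main fit has no block, and its counts in PR1 against parental cells and in PR2 against PR1 changed with one. Alternatives were another pseudocount, filters, scalings, the letter block, fewer groups, no trend and libraries left out.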

Additional observations from a re-analysis of the deposited data

Results flagged for a closer look

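In PR2 against PR1, 2 of 10 members and 1 of the 4 other tested rows of the family were called, where 19.9% of all rows were. These shares are near that of all rows. The 3 genes are listed because the derivatives, each compared with the same parental cells, differed from each other in them. EPHA4 differed by a log2 value of -0.565 (limma adjusted p = 0.0205), EFNB1 by 0.615 (limma adjusted p = 0.0429) and EPHA10 by 1.73 (limma adjusted p = 5.95e-05). The calls of EPHA4 and EFNB1 were lost without some single libraries. EPHA4 passed the filter through the 3 PR1 libraries and parental A, and EPHA10 through the 3 PR2 libraries and parental C. Of PR2 and PR1, each of these genes reached 1 FPKM only where it was higher. Their 2 tests are thus not independent of the filter. Groups of 3 libraries were not examined for single outlying values.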

How the results depend on the processing

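Each result was recomputed under 18 alternatives; the cause of a change was not tested unless named. Rows called changed in PR1 against parental cells (1866) were 1207 with a filter of 5 FPKM, which tests fewer rows, and 3088 with the replicate block, and ran from 1141 to 2027 with single libraries left out. In PR2 against parental cells (2814) they were 1811 with the 5 FPKM filter and 1805 to 2922 with single libraries left out. In PR2 against PR1 (2395) they were 1573 with the 5 FPKM filter, 3789 with the replicate block and 1420 to 2446 with single libraries left out. Members called in PR1 against parental cells (0) were 1 with no filter, with quantile normalization and with the replicate block, 2 without the A libraries, and 0 with any single library left out. In PR2 against parental cells (2) they were 4 with the replicate block, where EPHB2 (limma adjusted p = 0.0485) and EFNA1 (0.0093) were added, 1 with only these groups fitted, and 0 to 3 with single libraries left out. In that comparison the letter C libraries correlated at 0.014, under the mark used for pairing. There EFNA2, outside the members, was also called with the block (0.57, limma adjusted p = 0.0256). In PR2 against PR1 (2) they were 1 with no filter, quantile normalization, median scaling or only these groups fitted, 0 with the 5 FPKM filter, 5 with the replicate block, 4 without the A libraries, and 0 to 3 with single libraries left out. Signs that turned belonged to differences that were not called. In PR1 against parental cells they were EPHA2 with median scaling (-0.035), with all A libraries left out (-0.055) and with single libraries left out (-0.085 to 0.147), and EPHB4 with median scaling (-0.028). EFNA1 ran from -0.239 to 0.133 and EFNA3,EFNA4 from -0.060 to 0.204 with single libraries left out. In PR2 against parental cells they were EPHA1 with quantile normalization (-0.0089) or median scaling (-0.023), EPHB4 with median scaling (-0.0026) and EPHA4 with all A libraries left out (0.015). In PR2 against PR1, EPHB4 was -0.0075 with all A libraries left out and ran from -0.00023 to 0.155 with single libraries left out, and EFNA3,EFNA4 ran from -0.018 to 0.343. Of the fold changes of members under alternatives, 481 kept their sign and side of the threshold, 24 lost a call, 18 gained one and 14 turned sign. The 481 include differences that were not called and stayed so. The calls in PR2 against parental cells were kept in 16 of 18 alternatives for EPHB3 and 12 of 18 for EFNB2. Those in PR2 against PR1 were kept in 13 of 17 for EPHA4 and 6 of 18 for EFNB1. The alternatives for genes outside the 10 members were chosen after seeing the data. With 3 libraries per population and no known depth, small differences of low genes such as EPHA4 are the least certain.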

Other observations

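The ratio of EPHB2 to EPHB3, receptors of the same class that share ephrin-B ligands, was computed after the values of both were seen. It was 1.70, 3.10 and 2.54 in PR2 A, B and C, 1.19, 1.13 and 0.974 in PR1 A, B and C, and 0.811, 0.622 and 0.743 in parental A, B and C, from FPKM. No ranges overlapped, and PR1 lay between PR2 and parental cells. Within letter A there is 1 library per population, so any unequal values would separate them. In those libraries EPHB2 was 15.4, 17.5 and 17.5 FPKM and EPHB3 was 9.05, 14.7 and 21.6 FPKM in PR2, PR1 and parental cells. The ratio was not tested, because it was picked for this pattern.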
